A study of Homo sapiens with 16 samples.

Results

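FOXA1 and a group of luminal secretory genes were followed in HCC70, a basal-like human breast cancer cell line, infected with constructs that express short hairpin RNAs (shRNAs) against transcription factors. The group was a list of 9 gene names, FOXA1, AGR2, MUC1, CA12, ERBB3, XBP1, MLPH, SPDEF and AZGP1, looked up by symbol among the 11282 genes of the deposited table, and 8 of the 9 were found. SPDEF, a luminal ETS-family transcription factor, had no row and is not analysed here. The members were chosen by name with results of these libraries in view, among them the normalized values of FOXA1 with its own hairpins and of AZGP1 in plko, so the p-values below describe the members and are not independent support. FOXA1 in cells with its own hairpins and AZGP1 in plko cells are therefore given with no test.

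The 16 libraries came from 8 constructs with 2 libraries each, called 1 and 2. The targeting constructs were named for the transcription factors FOXA1, KLF5, RBPJ and NFIB. Of the control constructs, shRFP, shLACZ and shLUC are named for genes that human cells lack and made up 6 hairpin-control libraries, and plko is named for the vector backbone. All 16 libraries carried different shRNA identifiers. By these identifiers, each pair of libraries with a hairpin differs in its hairpin as well as in its sample. As plko is named for the backbone, its 2 identifiers are not read as 2 hairpins. Nothing in the labels says that libraries were separate cultures, and the p-values measure only the spread between these samples. All cells were one line, grown in multiwell plates; the labels give no time after infection.

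Values are normalized read signals on a linear scale, and the reads recovered from them totalled between 375713 (plko 1) and 3090666 (RBPJ 1) per library, median 1164801.5. The epithelial markers measured included EPCAM, an epithelial adhesion molecule, at 278 to 386 over the 16 libraries, and the basal keratin gene KRT5 at 2085 to 4517. The simple-epithelial keratins were low in the plko and KLF5 libraries, KRT8 at 12.8 to 22.1 against 177 to 256 in the hairpin controls and KRT18 at 11.4 to 20.5 against 42.2 to 55.1. ESR1, the oestrogen receptor gene, was at 1.37 to 10.7. Of 11 fibroblast and endothelial markers 4 had a row, with a summed value of 8.38 to 43.2, and the defining endothelial markers PECAM1, VWF, CDH5 and KDR had none. Of 13 leukocyte markers 2 had a row, with a summed value of 8.82 to 51.2, almost all of it CD68, and PTPRC was at 0 to 3.55. Most of the differences between constructs lay with plko and KLF5, by limma with a Benjamini-Hochberg adjusted p under 0.05. At that threshold 812 genes (7.5% of the 10826 tested) differed between plko and the hairpin controls and 1194 genes (11%) between KLF5 and the hairpin controls. Among the hairpin-control constructs 0 genes passed, and 426 genes (3.93%) had an unadjusted p under 0.05. That was an F test among groups of 2 libraries, so its 0 is not on the same footing as the other counts.

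FOXA1 is a forkhead transcription factor that binds DNA wrapped in nucleosomes and opens chromatin for other factors, and in luminal breast cells it prepares sites for the oestrogen receptor. Luminal cells line the gland, and many of their characteristic genes encode proteins that are secreted, carried to the apical surface or needed in the secretory pathway. AGR2 encodes a protein disulfide isomerase of the endoplasmic reticulum that helps mucins fold. HCC70 is a basal-like line, in which FOXA1 is not usually counted among the defining genes.

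The 250 bases before the annotated starts of FOXA1 and AGR2 are shown because FOXA1 is the factor targeted and AGR2 is the gene whose values the results turn on. They are RefSeq reference sequence, build GRCh38.p14, both on the minus strand and written 5′ to 3′ toward the gene. FOXA1 lies at chr14:37595250-37595499 and AGR2 at chr7:16805000-16805249. Capitals mark a match, on either strand, to one of 3 forkhead-type strings: TGTTTAC, which is in 2.98% of all windows, TATTTAC, in 2.39%, or TGTTTGC, in 3.23%.
FOXA1: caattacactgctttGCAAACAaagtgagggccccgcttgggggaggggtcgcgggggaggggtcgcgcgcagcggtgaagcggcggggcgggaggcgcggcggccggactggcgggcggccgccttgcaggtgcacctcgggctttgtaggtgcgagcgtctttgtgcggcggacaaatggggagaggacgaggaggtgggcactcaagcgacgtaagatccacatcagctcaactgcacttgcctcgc
AGR2: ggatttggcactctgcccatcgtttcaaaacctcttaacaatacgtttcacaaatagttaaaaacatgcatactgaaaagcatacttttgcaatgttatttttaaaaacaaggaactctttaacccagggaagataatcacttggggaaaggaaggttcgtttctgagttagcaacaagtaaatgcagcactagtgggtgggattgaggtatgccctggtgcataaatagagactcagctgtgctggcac
The FOXA1 window has a GC content of 67.2% and the AGR2 window 40.4%, against a median of 58.0% over 35116 windows of the same length. GCAAACA, the reverse complement of TGTTTGC, begins 235 bases before the FOXA1 start. None of the 3 strings is in the AGR2 window. Windows were found for 8 of the 9 names, 11 windows in all with none for ERBB3, and 2 of these, of FOXA1 and SPDEF, hold a match, while 8.27% of all windows do. These 3 strings were kept from 11 that were looked at, after their matches had been seen, so the matches describe the letters of the windows and nothing more.

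FOXA1, the targeted gene, was lowest in the libraries with FOXA1 hairpins. Its normalized value there was 24.4 in library 1 and 58.6 in library 2, from 37 and 39 reads, against 99.97 ± 33.5 (SD, n = 6) in the hairpin controls. As a share of the control mean these are 24.4% and 58.6%. Both lay below the lowest hairpin control, shLACZ 1 at 67.6, and the highest was shLUC 1 at 160.1. The remaining hairpin controls read 71.4 and 92.2 in shRFP 1 and 2, 109 in shLACZ 2 and 99.3 in shLUC 2. In bulk libraries, fewer cells with a transcript and less transcript per cell cannot be told apart.

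With hairpins against other factors, and in plko, FOXA1 overlapped the hairpin controls. It read 125 and 131 in KLF5 1 and 2, 92.7 and 163 in plko 1 and 2, 82.7 and 124 in NFIB 1 and 2, and 65.1 and 89.1 in RBPJ 1 and 2. By mean level the order was KLF5 at 127.9, plko at 127.8, NFIB at 103, the hairpin controls at 99.97, RBPJ at 77.1 and the FOXA1 hairpins at 41.5. Neighbours in this order overlapped in their values except RBPJ and the FOXA1 hairpins. The fitted log2 difference from the hairpin controls was -1.32 ± 0.31 (SE) with FOXA1 hairpins, given as a description. It was -1.93 without FOXA1 library 2 and -0.70 without FOXA1 library 1.

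**Figure D1:**
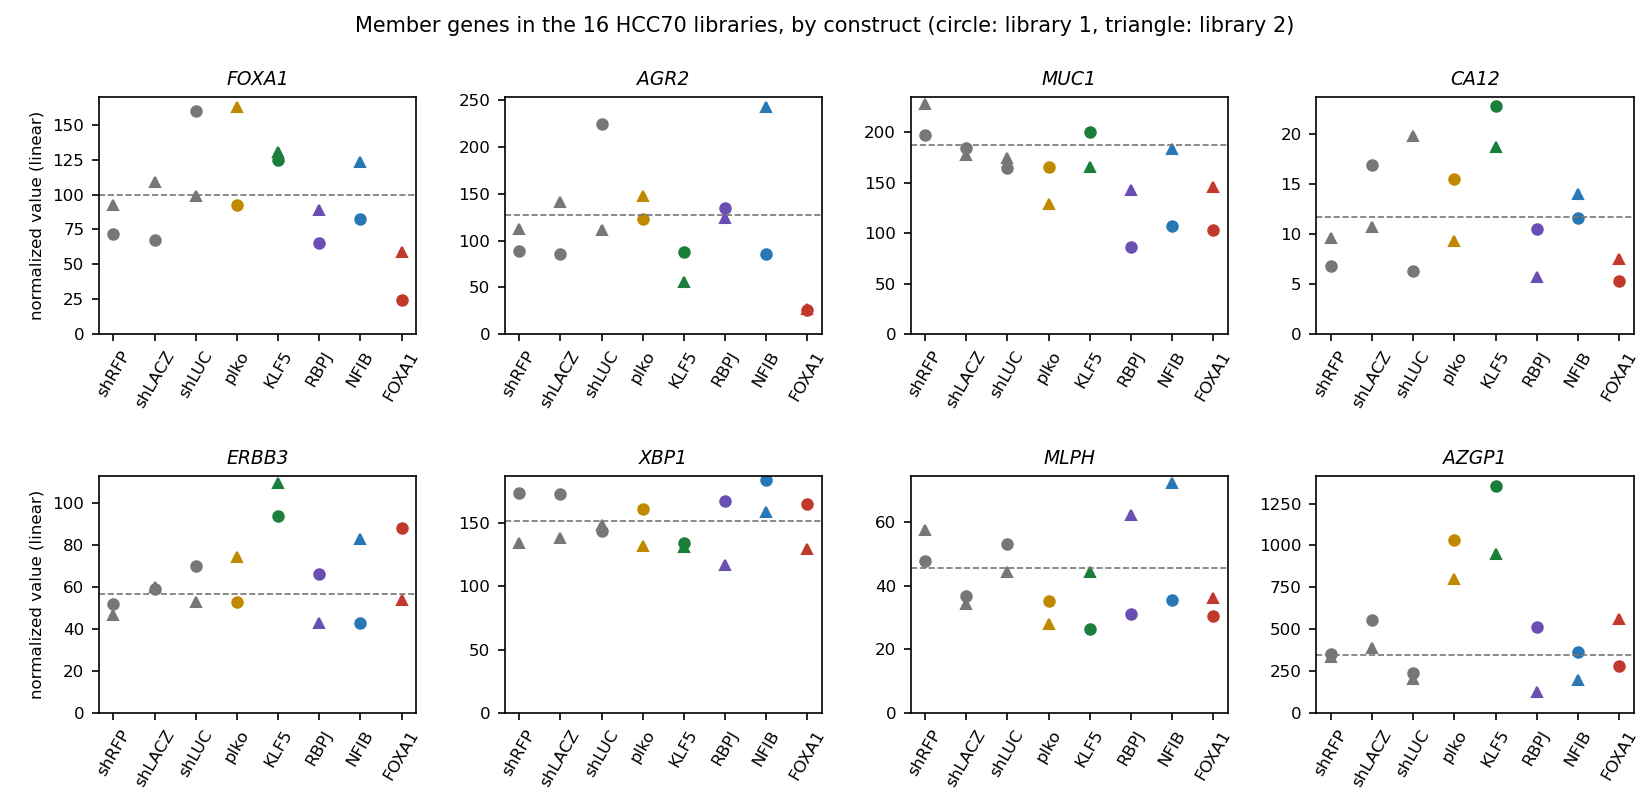
Normalized value (linear axis from 0) of the 8 measured members in each of the 16 libraries, by construct; circles are library 1, triangles library 2, and the dashed line is the mean of the 6 hairpin controls. FOXA1 and AGR2 are lowest with FOXA1 hairpins, and AZGP1 stands at 797 to 1354 in the plko and KLF5 libraries.

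AGR2 fell with FOXA1 hairpins, and it was the only one of 10826 genes to pass the threshold in that comparison (0.00924% of genes, with 753 genes or 6.96% at an unadjusted p under 0.05). AGR2 read 25.7 and 27.0 in FOXA1 1 and 2, from 39 and 18 reads. The hairpin controls read 88.4 and 113 in shRFP 1 and 2, 85.9 and 141 in shLACZ 1 and 2, and 225 and 111 in shLUC 1 and 2. Both FOXA1-hairpin libraries were therefore below every control library, at 20.2% and 21.2% of the hairpin-control mean of 127 ± 51.9 (SD, n = 6). Among all genes tested, 5.83% had both FOXA1-hairpin libraries below all 6 hairpin controls.

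The log2 fold change of AGR2 against the hairpin controls was -2.15 ± 0.32 (SE), with a 95% interval of -2.81 to -1.49 and an adjusted p of 0.00697 by limma. The call was lost by edgeR on the recovered reads (adjusted p = 0.0606), without a mean-variance trend (0.171) and without FOXA1 library 2 (0.235), with fold changes of -2.30, -2.15 and -2.18. It held by DESeq2 on the recovered reads (adjusted p = 2.24e-05) and without FOXA1 library 1 (0.0338), where the number of genes called went from 1 to 30. An exact 2-sided permutation test over the 8 libraries gave p = 0.0714 (0.494 after adjustment over 38 such tests of members), the smallest p that 28 arrangements can give, so that test cannot reach 0.05.

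AGR2 also fell with FOXA1 hairpins relative to hairpins against other factors. In RBPJ 1 and 2 it read 135 and 124, and in NFIB 1 and 2 it read 85.4 and 243, which is the highest value of the 16 libraries. Against the mean of those 4 libraries its log2 fold change was -2.33 ± 0.34 (SE, limma adjusted p = 0.00163), one of 18 genes called (0.166% of genes tested). Without FOXA1 library 2 that call was lost (adjusted p = 0.0643), and so it was without a mean-variance trend (0.0665).

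KLF5 hairpins left AGR2 between the FOXA1 hairpins and the controls. It read 87.4 and 56.0 in KLF5 1 and 2, at 68.7% and 44.0% of the hairpin-control mean, and KLF5 1 overlapped the controls. The log2 difference from the hairpin controls was -0.77 (95% interval -1.43 to -0.11, limma adjusted p = 0.129) and that from plko, which read 124 and 147, was -0.94 (adjusted p = 0.182). Without KLF5 library 2 these were -0.46 and -0.62. A direct comparison of FOXA1 with KLF5 hairpins, added after these values were seen, gave -1.38 ± 0.39 (SE, limma adjusted p = 0.0367), where 662 genes (6.11%) were called. That call was lost by edgeR (0.0811), with all 8 controls as one group (0.0672), without a mean-variance trend (0.129) and on leaving out any 1 of the 4 libraries compared, with adjusted p of 0.0614 to 0.302. By mean level AGR2 ran from 164 in NFIB through 136 in plko, 129 in RBPJ, 127 in the hairpin controls and 71.7 in KLF5 to 26.4 with FOXA1 hairpins, and only the last neighbours in that order did not overlap.

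**Figure D2:**
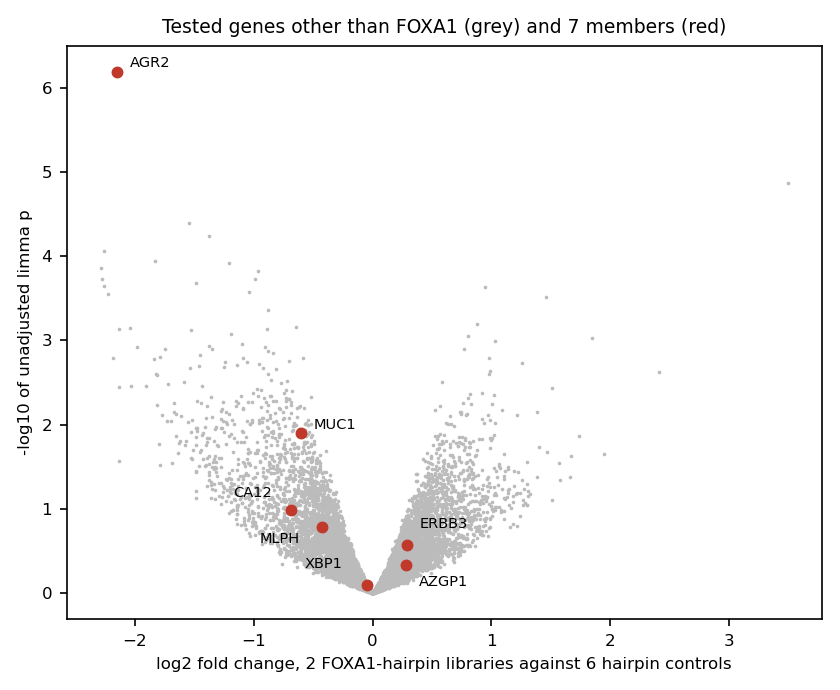
Log2 fold change of the 2 FOXA1-hairpin libraries against the 6 hairpin controls (horizontal) and -log10 of the unadjusted limma p (vertical) for the genes tested (grey) and 7 members (red); FOXA1, the targeted gene, is left out. AGR2, at -2.15, is the highest point; MUC1, CA12, MLPH, ERBB3, XBP1 and AZGP1 lie among the other genes.

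FOXA1 and AGR2 also varied together in part of the libraries that had no FOXA1 hairpin. On the log2 scale Pearson r between them was 0.72 over all 16 libraries and 0.86 over the 12 without plko and KLF5. Both of these sets include the FOXA1-hairpin libraries, whose FOXA1 values were in view when the members were chosen. The following subsets were chosen after the values were seen. Over the 6 hairpin controls r was 0.98, and over all 8 controls it was 0.91. Over the 14 libraries without FOXA1 hairpins it was 0.36, and 0.06 after removing plko 2 and shLUC 1, the libraries farthest from the median of FOXA1. The KLF5 libraries, high in FOXA1 and low in AGR2, are in that set, and without them r over 12 libraries was 0.74. In 6 of 8 constructs the library with more FOXA1 also had more AGR2, and the exceptions were KLF5 and RBPJ. This count goes by direction alone and includes the FOXA1-hairpin pair. In FOXA1 1 and 2, FOXA1 read 24.4 and 58.6 while AGR2 read 25.7 and 27.0. These correlations are descriptions over libraries that share normalization, depth and construct, and in the hairpin controls FOXA1 also ran with depth (r = 0.63).

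**Figure D3:**
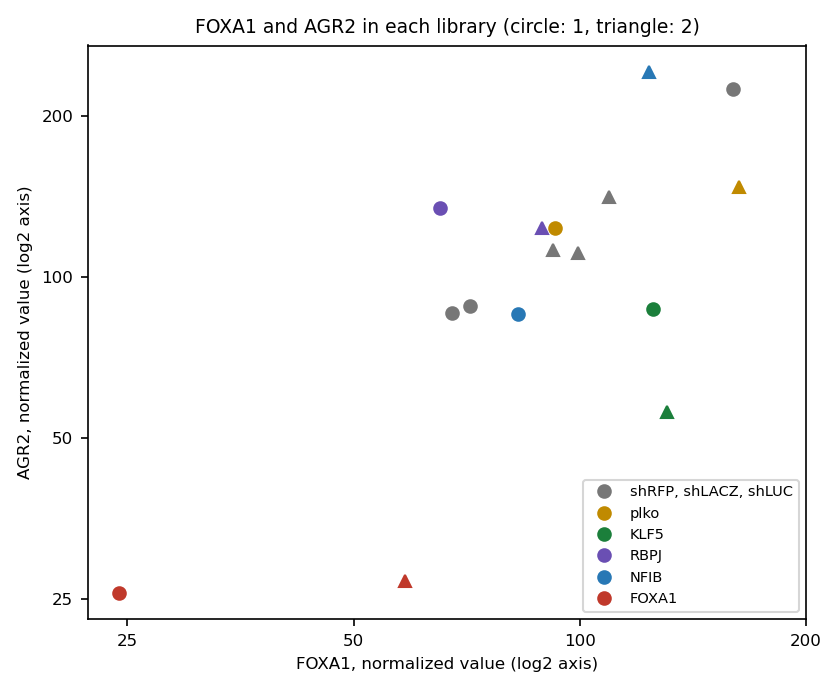
Normalized value of FOXA1 (horizontal, log2 axis) against AGR2 (vertical, log2 axis) in each library; circles are library 1, triangles library 2, colours are constructs. The grey hairpin controls rise together, and the red FOXA1-hairpin libraries lie lowest at 25.7 and 27.0 for AGR2. The green KLF5 libraries read 125 and 131 for FOXA1, within the range of the controls. For AGR2 they read 87.4, which overlaps the controls, and 56.0, which lies below them.

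Ranked by Pearson r with FOXA1 over the 16 libraries, the nearest genes were CASP2 at 0.846, RHEB at 0.798 and TMC6 at 0.777, and AGR2 came 9th. TMC6 was low, at a mean value of 6.9. None of these genes was among the 3 nearest over the 14 libraries without FOXA1 hairpins. Over the 14 libraries without FOXA1 hairpins AGR2 came 1331st (r = 0.357) and ERBB3 174th (r = 0.585).

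The other luminal members did not pass the threshold with FOXA1 hairpins. MUC1, a membrane mucin of the apical surface, read 103 and 146 in FOXA1 1 and 2, against 164 to 228 in the hairpin controls (mean 188 ± 22.4, SD, n = 6). Both were below every hairpin control, as for 5.83% of genes, but plko 2 at 129 was lower than FOXA1 2. The log2 difference was -0.60 (95% interval -1.07 to -0.14, limma adjusted p = 0.599), and -0.35 without FOXA1 library 1 or -0.85 without library 2. MUC1 with RBPJ hairpins was at 85.8 and 142 in RBPJ 1 and 2, where the log2 difference was -0.75 (adjusted p = 0.372; -0.39 without RBPJ 1 and -1.11 without RBPJ 2) and both libraries were below the hairpin controls, as for 4.03% of genes. With NFIB hairpins it read 107 and 184 and with KLF5 hairpins 199.8 and 166. Between FOXA1 hairpins and the RBPJ and NFIB hairpins together the log2 difference was -0.03 (95% interval -0.52 to 0.46).

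MLPH, melanophilin, which links Rab27 on vesicles to myosin, read 30.3 and 36.1 with FOXA1 hairpins against 34.3 to 57.5 in the hairpin controls, an overlapping range. Its log2 difference was -0.43 (95% interval -1.04 to 0.19, limma adjusted p = 0.826). In the plko libraries it read 35.3 and 27.9, a log2 difference of -0.50 (adjusted p = 0.326), and -0.33 without plko 2. Its highest value was 72.1 in NFIB 2, while NFIB 1 read 35.5.

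CA12, a membrane carbonic anhydrase typical of oestrogen receptor-positive tumours, rested on few reads. It had 8 and 5 reads in FOXA1 1 and 2, for values of 5.27 and 7.51, and 6.30 to 19.7 in the hairpin controls. The log2 difference was -0.68 (95% interval -1.52 to 0.15, adjusted p = 0.783 by limma) and did not pass. The part of depth in this was not tested. With KLF5 hairpins CA12 read 22.7 and 18.7, from 32 and 16 reads, a log2 difference of 0.88 (adjusted p = 0.174).

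XBP1, the transcription factor of the unfolded protein response that expands the secretory pathway, was the steadiest member. It ran from 117 in RBPJ 2 to 184 in NFIB 1, a highest-to-lowest ratio of 1.57 over the 16 libraries, against 6.69 for FOXA1 and 9.45 for AGR2. With FOXA1 hairpins it read 165 and 129, and the log2 difference from the hairpin controls was -0.05 with a 95% interval of -0.44 to 0.34. With KLF5 hairpins it read 134 and 131, a log2 difference of -0.19 (95% interval -0.58 to 0.20).

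ERBB3, a receptor of the epidermal growth factor receptor family that signals as a partner of ERBB2, rose with KLF5 hairpins. It read 93.8 and 110 in KLF5 1 and 2, both above all other libraries, against 56.8 ± 8.11 (SD, n = 6) in the hairpin controls, which ran from 46.7 to 70.0. Among all genes 14.3% had both KLF5 libraries above the 6 hairpin controls, and 4.42% passed the threshold as higher. The log2 fold change was 0.84 ± 0.26 (SE, limma adjusted p = 0.0363). The call was lost with all 8 controls as the reference (adjusted p = 0.0716), without a mean-variance trend (0.0882), without KLF5 library 1 or 2 (0.143 and 0.279) and without shRFP 1, shRFP 2 or shLUC 2. Against plko, where ERBB3 read 53.0 and 74.4, the log2 difference was 0.68 (95% interval 0.04 to 1.33, adjusted p = 0.228; 372 genes, 3.44%, were called), and 0.44 without plko 1. With FOXA1 hairpins it read 88.2 and 54.1, on either side of the highest hairpin control.

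AZGP1, a secreted zinc-binding glycoprotein of luminal glands, had another pattern from FOXA1 and AGR2. It has pseudogene relatives, AZGP1P1 among them, and how reads shared with them were assigned is not stated. It read 1354 and 946 in KLF5 1 and 2 and 1033 and 797 in plko 1 and 2. The hairpin controls read 354 and 333 in shRFP 1 and 2, 555 and 386 in shLACZ 1 and 2, and 237 and 203 in shLUC 1 and 2, a mean of 345 ± 125 (SD, n = 6). All 4 KLF5 and plko libraries thus lay above every other library. Among all genes, 14.3% had both KLF5 libraries and 9.94% both plko libraries above the 6 hairpin controls. Against the hairpin controls AZGP1 rose with KLF5 hairpins by 1.79 ± 0.38 (SE) on the log2 scale (95% interval 0.997 to 2.58, limma adjusted p = 0.00325). In plko the log2 difference was 1.47, a description with no test.

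Between KLF5 and plko the log2 difference of AZGP1 was 0.32, also a description, with 0.06 to 0.58 over the left-out libraries. With plko counted among 8 controls the KLF5 difference was 1.42 and no longer passed (adjusted p = 0.0948), and it did not pass without KLF5 library 1 (0.11). These contrasts share the same 6 hairpin controls. AZGP1 also ran with depth in the hairpin controls, with r = -0.88 over 6 libraries and -0.45 over all 16. The libraries highest in AZGP1 held 375713 reads in plko 1, 1256160 in plko 2, 1167504 in KLF5 1 and 690631 in KLF5 2. The part of depth in the result was not tested.

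With the remaining hairpins AZGP1 was spread widely. It read 282 and 560.3 in FOXA1 1 and 2, 510.5 and 124 in RBPJ 1 and 2, and 361 and 199 in NFIB 1 and 2. The FOXA1-hairpin log2 difference from the hairpin controls was 0.28 (95% interval -0.51 to 1.08), with the library of lower FOXA1 lower in AZGP1 too. Genes nearest to AZGP1 over the 16 libraries were ALDH1L2 (r = 0.896), TMEM123 (0.89) and PANK1 (0.885), the last at a mean value of 8.9. None of these genes was among the 3 nearest over the 12 libraries without plko and KLF5. MLPH ran against AZGP1, with r = -0.69 over the 16 libraries and -0.53 without RBPJ 2 and NFIB 2.

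**Figure D4:**
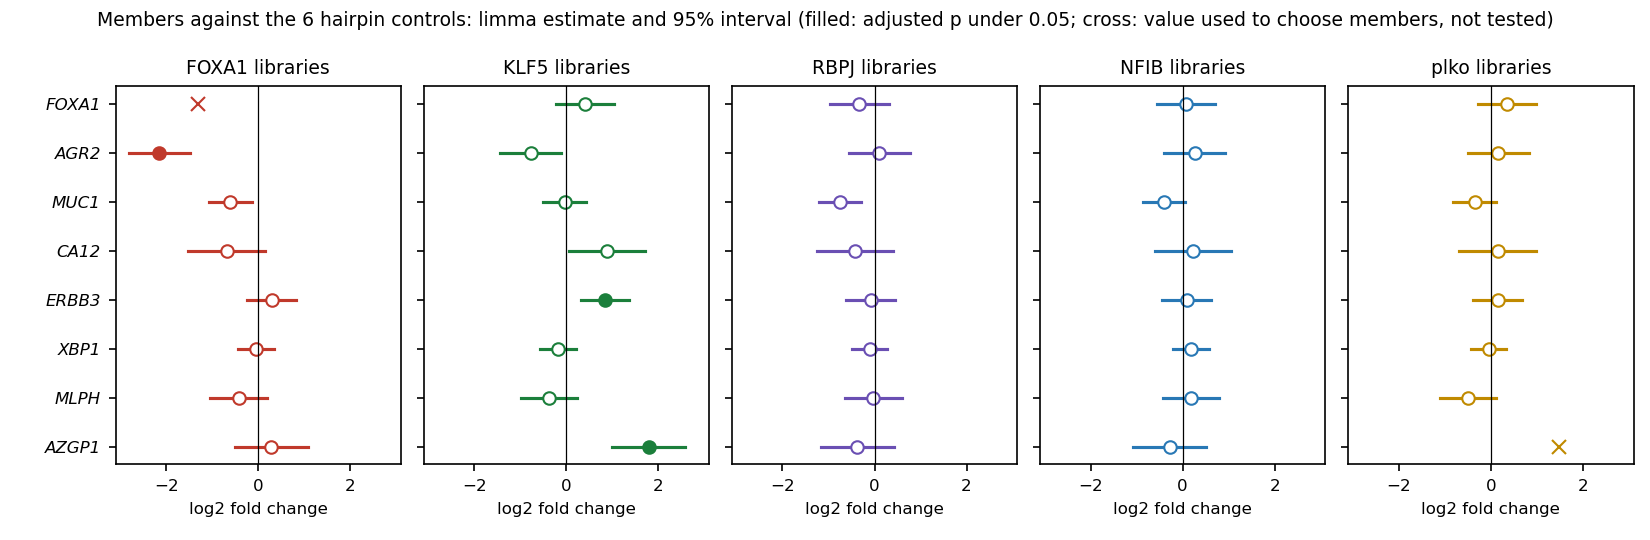
Log2 fold change (points) and 95% interval (bars) of the 8 measured members against the 6 hairpin controls for each targeting construct and plko; filled points have a limma adjusted p under 0.05 over all genes, and crosses are FOXA1 with its own hairpins and AZGP1 in plko, which were not tested. AGR2 is filled with FOXA1 hairpins, and ERBB3 and AZGP1 with KLF5 hairpins.

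With RBPJ and NFIB hairpins no measured member passed the threshold, where limma called 3 genes (0.0277%) and 1 gene (0.00924%) in all. By unadjusted limma p, MUC1 with RBPJ hairpins was the lone member under 0.05, at 0.00266, where 6.01% of genes were.

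The wider gene lists, chosen with earlier results known, had no member past the threshold with FOXA1 hairpins, where 0.00924% of all genes passed, so the counts of 0 set no list apart. Of 25 tested genes of luminal identity and hormone response, 0 passed in either direction and the median log2 difference was -0.11, against 0.0 over all genes. The smallest p in that list was that of the luminal keratin KRT7, at -0.49 (limma adjusted p = 0.599). Of 50 tested genes of endoplasmic reticulum entry, folding and export, the compartment in which AGR2 works, 0 passed and the median was -0.01, with KDELR3, a retrieval receptor of that compartment, at -0.88 (adjusted p = 0.388). Of 17 tested partner factors and corepressors of FOXA1 0 passed, with a median of 0.14 and KMT2C, a histone methyltransferase, at 0.60 (adjusted p = 0.686). Of 15 tested forkhead family genes 0 passed, with FOXP4 at -0.46 (adjusted p = 0.729). Of 7 tested secreted luminal and milk protein genes, 5 mucins, 13 ERBB receptor and ligand genes, 13 Rab27 and melanophilin complex genes, 5 carbonic anhydrases and 21 basal epithelial genes, 0 passed.

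With KLF5 hairpins, in which ERBB3 and AZGP1 rose, the luminal list held 1 gene that rose and 3 that fell of 25. The median log2 difference of the list was 0.08, against 0.05 over all genes. Those that fell were the simple-epithelial keratins KRT8 (-3.94), KRT18 (-1.78) and KRT19 (-1.28), with limma adjusted p of 2.11e-08, 0.000553 and 0.000272. In plko KRT8 (-3.54), KRT18 (-1.28) and KRT19 (-0.68) fell as well. Over all genes, 6.61% fell and 4.42% rose with KLF5 hairpins, and 5.63% fell in plko. Of the 50 endoplasmic reticulum genes 3 rose and 5 fell with KLF5 hairpins, among them SEC61G (-1.16), a subunit of the translocation channel, and the chaperone gene CALR (-0.996), which fell, and the isomerase gene PDIA4 (0.78), which rose. Of the 7 secreted luminal genes LCN2 (-1.90) and SLPI (-0.96) fell and 0 rose, while the median of the list was 0.87, against 0.05 over all genes. WFDC2 (0.93, adjusted p = 0.0703) and CLU (1.04, adjusted p = 0.34) of that list did not pass. HBEGF (-1.43), which encodes a ligand of the epidermal growth factor receptor, was the only called gene of 13 in the ERBB list. COL1A1, a fibroblast marker, was higher with KLF5 hairpins as well (1.33, limma adjusted p = 0.0291), at 27.0 and 29.2 against 6.80 to 25.8 in the hairpin controls. With NFIB hairpins COL1A1 read 24.6 and 32.5, a log2 difference of 1.34 that did not pass. The part of COL1A1 in these results was not tested.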

How the data were processed

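The authors deposited one table of normalized signal for 11282 genes, described as DESeq2-normalized in the table's own name, with build GRCh37 per the submitters' processing notes. RNA was barcoded at the 3′ end in batches of 12 samples and amplified by in vitro transcription, some samples being run again, per the labels' protocols. Batches, aligner, counter, annotation and any molecular identifiers were not given in the sources used here. Dividing by the smallest value of a library turned its deposited values into whole numbers (tolerance 0.05 of a read, 100% of values), so reads were recovered for edgeR and DESeq2 as alternatives. The table held 2 columns that were not used. Symbols were found for 11259 identifiers, and control constructs were taken as such from their names.

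The test was limma 3.58.1 (R 4.3.3) with a mean-variance trend on log2(value + 1), 2-sided, with Benjamini-Hochberg adjustment over the 10826 genes that reached a value of 5 in 2 or more libraries (456 did not). A factor of 6 levels (hairpin controls, plko and each target) was fitted over all 16 libraries, and 8 levels for the test among control constructs. Fold changes on this scale understate those of low genes. Counts were simulated for FOXA1 against the hairpin controls over 10823 genes, with a single fixed spread that was not estimated from these libraries. The changed genes had a mean of at least 20 and were changed together. The test called 20 of 50 genes changed by 1 on the log2 scale, 37 of 50 at 1.5, 50 of 50 at 2 and 50 of 50 at 3. It also called 17 unchanged genes. These counts are not the power of the test in the real libraries, and CA12, at a mean of 11.9, lay below the genes changed. Alternatives used edgeR 4.0.16, DESeq2 1.42.0, other pseudocounts, filters, references and scalings, and each library left out. Members, lists and the rule for named genes (all members, the 3 genes most correlated with FOXA1 and with AZGP1, and up to 4 genes a list by p) were chosen with earlier results of these data known. The comparison of FOXA1 with KLF5 hairpins, the fit of 12 libraries and the later correlation subsets were added after seeing the data. The pair of libraries of each construct differed beyond counting noise (chi-square over degrees of freedom, 2.07 to 19.7).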

Additional observations from a re-analysis of the deposited data

Results flagged for a closer look

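AGR2 in the control library shLUC 1, at 225, lay far from the other 7 of the 8 controls, which ran from 85.9 to 147. On the linear scale the gap of shLUC 1 to the next value was 0.557 of the range, above the limit of Dixon's test. The gap was not tested on the log2 scale that limma used. Among the 6 hairpin controls alone the gap was 0.601 of the range, which did not pass the limit for 6. Chance marks about 1 in 20 groups, and 16 were looked at here, the members in the 6 hairpin controls and in the 8 controls. Without shLUC 1 the AGR2 log2 fold change with FOXA1 hairpins was -1.97. AGR2 differed between FOXA1 hairpins and the RBPJ and NFIB hairpins by -2.33 on the log2 scale, and between FOXA1 and KLF5 hairpins by -1.38, both tested directly by limma (adjusted p of 0.00163 and 0.0367).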

How the results depend on the processing

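For 21 member differences, 546 values were computed under alternatives: 515 kept direction and side of the threshold, 24 lost the call, 6 gained it, and the XBP1 difference with FOXA1 hairpins turned from -0.05 to 0.13 without FOXA1 library 2 (-0.22 to 0.13 over the left-out libraries). The cause of each change was not tested.

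The number of members called with FOXA1 hairpins was 1, and 0 without a mean-variance trend and by edgeR, with 0 to 1 over the left-out libraries. With KLF5 hairpins it was 2, and 0 with 8 controls and 1 without a trend, with 0 to 2 over the left-out libraries. In plko it was 1, and 0 without a trend and by DESeq2, with 0 to 1 over the left-out libraries; this 1 is AZGP1, whose value there is a description, and nothing is read from the count. Against RBPJ and NFIB it was 1 and 0 without a trend, with 0 to 1 over the left-out libraries. Between FOXA1 and KLF5 hairpins it was 2 (AGR2, and FOXA1 as a description only), 1 with 8 controls, 3 with a replicate block, 0 without a trend and 1 by edgeR, with 0 to 4 over the left-out libraries.

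Counts of all genes moved more: with KLF5 hairpins from 1194 to 581 with 8 controls, 365 without KLF5 1 and 503 without KLF5 2; in plko from 812 to 377 without a trend, 382 by edgeR, 485 by DESeq2 and 131 without plko 1; between KLF5 and plko from 372 to 37 without a trend, 146 by edgeR and 0 without plko 1, against 958 without plko 2; with FOXA1 hairpins from 1 to 30 without FOXA1 1 and 0 without FOXA1 2; with RBPJ hairpins from 3 to 29 by DESeq2, 1 by edgeR, 205 without RBPJ 1, 0 without RBPJ 2 and 0 without a trend; against RBPJ and NFIB from 18 to 51 by DESeq2, 0 without a trend and 113 without RBPJ 1; between FOXA1 and KLF5 hairpins from 662 to 312 with 8 controls, 353 without a trend and 149 without FOXA1 2; with NFIB hairpins 0 to 4.

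No general pairing by library number was seen: over 28 pairs of constructs the correlation of deviations ran from -0.19 to 0.22, with 3 above 0.1. Those above 0.1 were RBPJ with plko, KLF5 and shLUC. Counting noise and the different hairpins also enter these deviations and the batches are not given, so a batch shared by some samples cannot be told from them. With the library number as a replicate block the AGR2 difference with FOXA1 hairpins was -2.15 (adjusted p = 0.00747), and the block changed 1 call among the 21 differences: AZGP1 between FOXA1 and KLF5 hairpins, at -1.51, passed with it (adjusted p = 0.0382) and not without it (0.0581). CA12 had the fewest reads of the measured members, with 5 to 42 a library.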
